A study of Homo sapiens with 6 samples.

Results

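The genes described here encode proteins that lie along actin filaments and set how the filament behaves. They are the 4 tropomyosins (TPM1, TPM2, TPM3 and TPM4), the transgelins TAGLN and TAGLN2, the 3 calponins (CNN1, CNN2 and CNN3) and ACTA2, the smooth muscle alpha-actin. They were chosen by gene symbol, not by any measured value, and are 10 of the 46427 genes in the deposited gene table. RNA came from MDA-MB-231 cells, an established metastatic breast cancer cell line labelled as wild type in genotype. 3 cell preparations were transfected with control-siRNA and 3 with TAZ-siRNA, a reagent against WWTR1, the gene of the transcriptional coactivator TAZ. All 6 were grown with serum and harvested with trypsin. A single cell line and a single catalogue siRNA reagent stand behind the comparison, and the dose and duration used for the sequenced preparations are not given in the sources used here. The study asked how TAZ bears on actin dynamics and migration, and the comparison here asks how the transcripts of these filament-binding proteins differ between the groups.

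Tropomyosins are coiled-coil dimers that polymerise head to tail along the actin filament. They decide which other proteins, such as myosins and cofilin, can reach it. Each tropomyosin gene can make long isoforms, typical of stress fibres and muscle, and some genes also make short isoforms from an internal start. Calponins and transgelins share a calponin homology domain and stabilise or bundle filaments. TAGLN (SM22-alpha), CNN1 and ACTA2 are classical markers of contractile smooth muscle and of myofibroblasts, and many of these genes are known targets of serum response factor with its myocardin-related coactivators. TAZ acts on DNA mainly through TEAD factors.

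WWTR1 was measured first, as the check of the labels. It had 12828, 11808 and 9228 estimated counts with control-siRNA and 1263, 840 and 843 with TAZ-siRNA. In CPM (counts scaled to equal library sizes) the mean fell from 191 ± 1.46 to 16.5 ± 1.21 (SD, n = 3 each), so all 6 libraries matched their labels. Total counts lay between 48307548 and 71749634 per library, and 3 counts, the limit that a count of 0 allows, correspond to 0.0411 to 0.0618 CPM. This limit covers counting error only. TAZ-siRNA replicate 3 stood farther from its group than the others, with a chi-square of 30.3 and 41.0 per degree of freedom against the other two TAZ-siRNA libraries, which differed from each other by 11.7. The control-siRNA libraries differed among themselves by 6.79 to 21.9. Without TAZ-siRNA replicate 3 the number of genes called rose from 3749 to 5928, and without any other library it fell to between 1937 and 2687. Of 5 markers expected in the line, VIM stood at 3574, MSN at 852, CAV1 at 528, CD44 at 524 and AXL at 478 CPM in the control-siRNA group. Of 6 markers expected to be low, ESR1 had 0 to 6 counts per library, PGR 0 to 2, CDH1 2 to 36 and EPCAM 38 to 106. ERBB2 and GATA3 were present, at 46.7 and 8.67 CPM with control-siRNA. CAV1, AXL and GATA3 were called lower with TAZ-siRNA, as were 10.2% of all genes.

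Among the 10 genes, TPM2 and TPM1 were lower with TAZ-siRNA and ACTA2 was higher. TPM2 fell to 74.2% and TPM1 to 89.3% of the control-siRNA mean, and ACTA2 rose to 148% of it. The other 7, among them the 4 most abundant, had adjusted p-values of at least 0.168. All 10 passed the filter on low counts and were tested together with all other genes by edgeR's quasi-likelihood test, where a gene is called at an adjusted p under 0.05. The 3 called genes are 30% of the 10, against 22.1% of all 16966 genes tested. The single rise compares with 11.9% of all genes called higher and the 2 falls with 10.2% called lower. Values of the groups did not overlap for 5 of the 10 genes, against 39.6% of all genes. The shares are thus near the background, and the median log2 fold change was -0.05 for the 10 genes and -0.0054 for all genes tested. In RNA from whole cultures, fewer cells of a kind and less RNA per cell cannot be told apart.

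**Figure D1:**
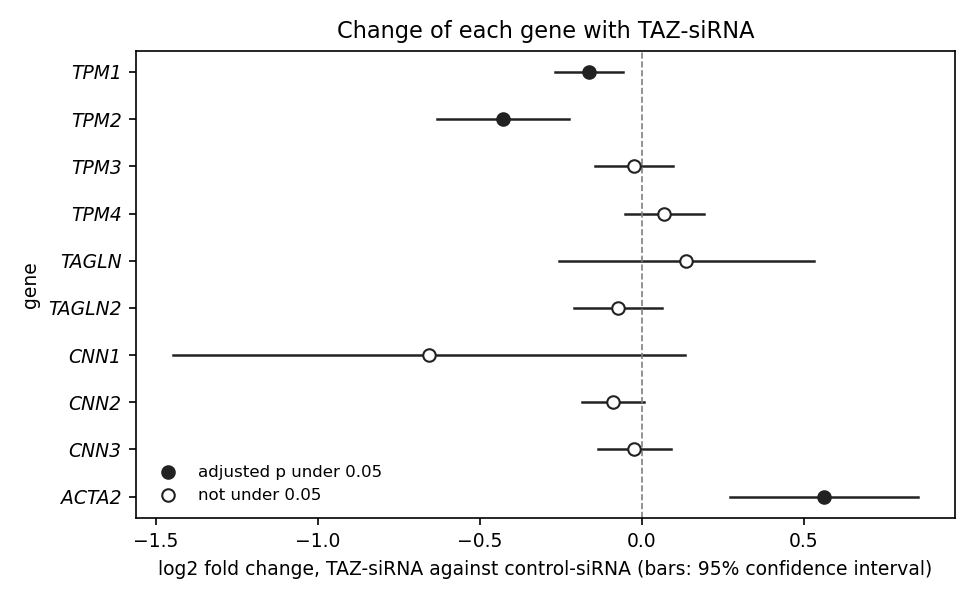
Log2 fold change of each of the 10 genes, TAZ-siRNA against control-siRNA (x axis), with the 95% confidence interval from edgeR as a bar and a filled point where the adjusted p is under 0.05 (n = 3 libraries a group). TPM1 (-0.16) and TPM2 (-0.43) lie below 0 and ACTA2 (0.56) above it, while CNN1 has the widest interval, from -1.45 to 0.13.

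The levels spanned more than 3 orders of magnitude. They are compared between genes in FPKM, which scales for transcript length. In the control-siRNA group TPM4 was highest at 309 ± 13.8 FPKM (SD, n = 3), followed by TAGLN2 at 277 ± 16.0, CNN3 at 163 ± 2.64 and TPM3 at 122 ± 3.97. CNN2 stood at 69.7 ± 0.331 and TPM1 at 54.8 ± 0.648 FPKM. The remaining 4 were low, with TPM2 at 7.20 ± 0.491, ACTA2 at 1.43 ± 0.142, TAGLN at 0.309 ± 0.0448 and CNN1 at 0.185 ± 0.0762 FPKM. The libraries of neighbours in this order did not overlap in either group, although TPM4 and TAGLN2 came close, with the lowest TPM4 value at 299 and the highest TAGLN2 value at 294 FPKM in the control-siRNA libraries. The order was the same with TAZ-siRNA. The smooth muscle genes of the group (TAGLN, CNN1 and ACTA2) were thus those with the lowest levels, and their widely expressed relatives (TAGLN2, CNN2, CNN3) were high.

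**Figure D2:**
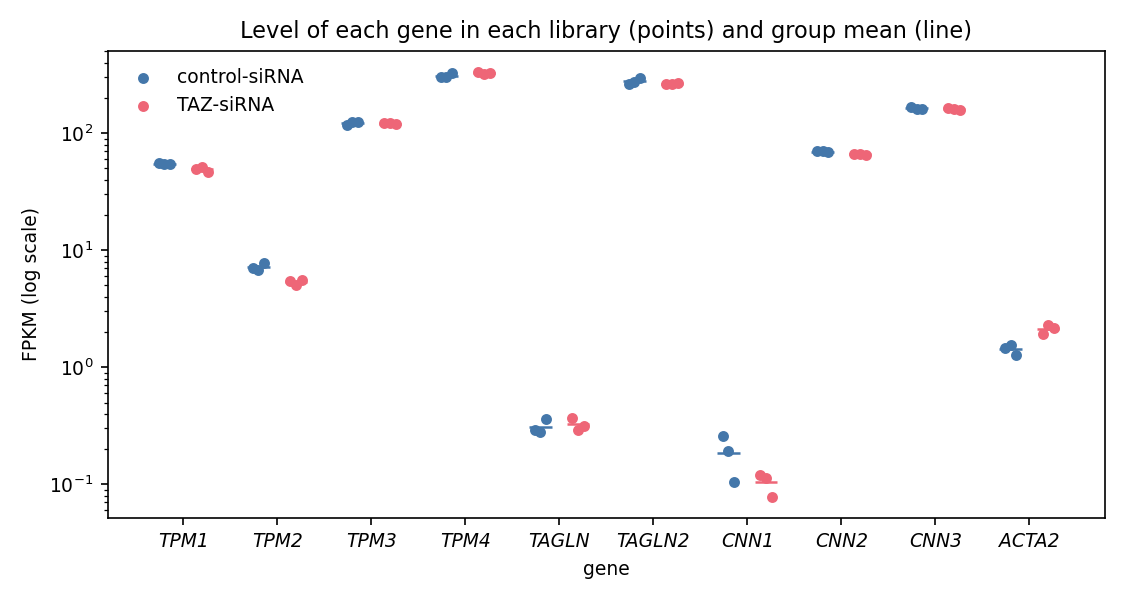
FPKM of the 10 genes in each library on a log axis, with a line at the mean of each group (n = 3). TPM4 lies highest, at 299 to 333 FPKM in the 6 libraries, and CNN1 lowest. Only for TPM1, TPM2, CNN2 and ACTA2 do the FPKM values of the groups not overlap. The gap is small on this axis for TPM1 (lowest control-siRNA value 54.3, highest TAZ-siRNA value 51.4) and CNN2 (69.3 and 67.0).

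TPM2 encodes a tropomyosin of stress fibres and muscle, made mainly as long isoforms. It was present at 9.46, 9.24 and 10.4 CPM with control-siRNA and at 7.17, 6.65 and 7.75 CPM with TAZ-siRNA. Every TAZ-siRNA library lay below every control-siRNA library. The log2 fold change was -0.43 (SE 0.092, 95% interval -0.63 to -0.22, adjusted p = 0.0084 by edgeR). This call held in all 6 fits that left out a library, where the log2 fold change ran from -0.48 to -0.37.

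TPM1 encodes the tropomyosin that makes both long stress fibre isoforms and short isoforms, according to which start is used. Its level was 104, 101 and 99.4 CPM with control-siRNA and 90.3, 94.2 and 87.7 CPM with TAZ-siRNA. The groups did not overlap, although the nearest libraries were only a few CPM apart. The log2 fold change was -0.16 (SE 0.048, 95% interval -0.27 to -0.057, adjusted p = 0.033 by edgeR). The call was lost without control-siRNA replicate 1 (adjusted p = 0.136), 2 (0.112) or 3 (0.073) and without TAZ-siRNA replicate 1 (0.110), while the log2 fold change stayed between -0.19 and -0.14. Limma on log2(FPKM + 1) gave an adjusted p of 0.066.

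TPM3 and TPM4 encode the most abundant cytoskeletal tropomyosins in these cells. TPM3 lay at 422, 441 and 449 CPM with control-siRNA and at 424, 425 and 441 CPM with TAZ-siRNA, and the groups overlapped. Its log2 fold change was -0.02 with a 95% interval of -0.14 to 0.096 (adjusted p = 0.788 by edgeR). Corrected for GC content and length it was -0.11 (adjusted p = 0.151 by edgeR), so TPM3 stayed uncalled. With the replicate number added to that correction as a block, TPM3 was called lower (adjusted p = 0.029 by edgeR). With the block alone it was not called (adjusted p = 0.711 by edgeR). TPM4 lay at 937, 947 and 974 CPM with control-siRNA and at 986, 994 and 1020 CPM with TAZ-siRNA. These groups did not overlap, yet the difference of 0.07 on the log2 scale had an interval of -0.052 to 0.19 and did not pass the test (adjusted p = 0.403 by edgeR).

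Summed over the 4 tropomyosin genes, the level was 493 ± 16.7 FPKM with control-siRNA and 503 ± 5.43 FPKM with TAZ-siRNA (SD, n = 3), and the libraries of the groups overlapped. The share of each gene within that sum is given by library or as mean ± SD. TPM4 held 62.4, 62.1 and 63.5% of the sum with control-siRNA and 65.4, 64.4 and 65.6% with TAZ-siRNA. The share of TPM3 went from 24.7 ± 0.532 to 24.0 ± 0.252%, that of TPM1 from 11.1 ± 0.482 to 9.78 ± 0.492% and that of TPM2 from 1.46 ± 0.0614 to 1.07 ± 0.0499%. None of the 4 shares overlapped between the groups, but shares of 1 sum are not independent of each other. For single genes, CPM values did not overlap for 39.6% of all genes tested. TPM3 and TPM4 were not called as genes. The FPKM of TPM4 itself overlapped between the groups, reaching 325 with control-siRNA and starting at 322 with TAZ-siRNA. With 3 libraries against 3 an exact permutation test cannot go below a p of 0.1, so these shares are given without a test.

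**Figure D3:**
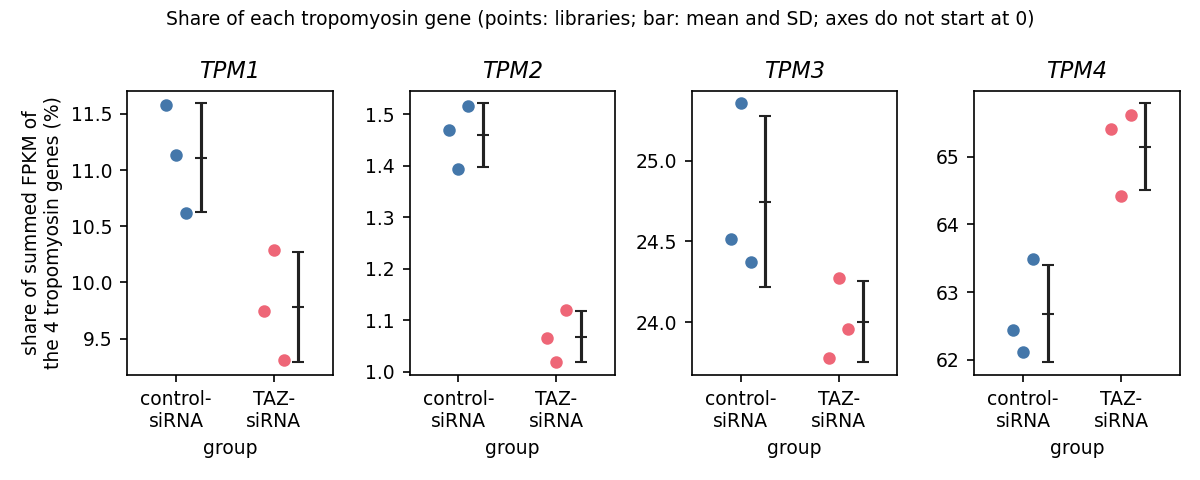
Share of each tropomyosin gene in the summed FPKM of the 4 genes (y axes in percent, each with its own range that does not start at 0), by group, with points for libraries and a bar for the mean and SD (n = 3). The share of TPM4 is higher with TAZ-siRNA (mean 65.2% against 62.7%) and those of the other genes are lower, without overlap.

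TAGLN2, the widely expressed transgelin, and TAGLN, the smooth muscle transgelin, were at opposite ends of the scale. TAGLN2 made up 99.9% of the summed transgelin FPKM in every library. It lay at 406, 420 and 454 CPM with control-siRNA and at 393, 399 and 424 CPM with TAZ-siRNA (log2 fold change -0.07, 95% interval -0.21 to 0.063, adjusted p = 0.432 by edgeR). The groups overlapped. TAGLN had 93, 77 and 79 counts with control-siRNA and 125, 68 and 87 counts with TAZ-siRNA, which correspond to 1.39, 1.24 and 1.63 CPM against 1.71, 1.38 and 1.56 CPM. Its log2 fold change was 0.14 (adjusted p = 0.626 by edgeR), and its interval of -0.26 to 0.53 leaves room for a change of the size measured for TPM1 or of nearly that for ACTA2.

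Among the calponins, CNN3 (acidic calponin) held 70.0 ± 0.349% and CNN2 29.9 ± 0.358% of the summed FPKM in the control-siRNA group. With TAZ-siRNA the shares were 70.9 ± 0.333% and 29.0 ± 0.339%. Neither share overlapped between the groups, as for the tropomyosins, and these dependent shares were not tested either. CNN2 had 168, 166 and 166 CPM with control-siRNA and 154, 157 and 159 CPM with TAZ-siRNA. The groups did not overlap, but the log2 fold change of -0.09 (95% interval -0.18 to 0.0065) did not pass the test (adjusted p = 0.168 by edgeR). CNN3 lay at 372, 356 and 364 CPM against 359, 356 and 359 CPM, with overlap (log2 fold change -0.02, adjusted p = 0.791 by edgeR). CNN1, the calponin of differentiated smooth muscle, was close to the limit of detection with 29, 26 and 12 counts against 19, 13 and 10 counts. Its fitted log2 fold change of -0.66 had an interval of -1.45 to 0.13 (adjusted p = 0.217 by edgeR), so at this depth neither a fall nor the lack of one could be shown.

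ACTA2 encodes the actin of vascular smooth muscle and of myofibroblast stress fibres. It had 192, 188 and 124 counts with control-siRNA and 268, 220 and 246 counts with TAZ-siRNA. These correspond to 2.88, 3.02 and 2.55 CPM against 3.68, 4.46 and 4.40 CPM, with every TAZ-siRNA library above every control-siRNA library. The log2 fold change was 0.56 (SE 0.13, 95% interval 0.27 to 0.85, adjusted p = 0.012 by edgeR). Leaving out control-siRNA replicate 3 ended the call (log2 fold change 0.50, adjusted p = 0.062 by edgeR), and leaving out any other single library did not. Against the cytoplasmic actins the level was very low: ACTB stood at 2447 ± 21.5 CPM and ACTG1 at 2986 ± 108 CPM in the control-siRNA group.

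Markers of smooth muscle and fibroblasts were measured beside ACTA2. Of the 7 smooth muscle markers, MYH11 had 1 to 7 counts per library, MYOCD 0 to 3, KCNMB1 0 to 2, ACTG2 0 to 8 and LMOD1 4 to 27. These 5 were near 0, while DES and SYNM were not. The summed level of the list was nonetheless 23.5 to 28.9 CPM with control-siRNA and 32.0 to 40.7 CPM with TAZ-siRNA, mostly from SYNM, an intermediate filament protein (22.4 to 34.3 CPM in the means, adjusted p = 0.0048 by edgeR), while DES went from 3.79 to 2.24 CPM (adjusted p = 0.0063 by edgeR). Of the 7 fibroblast markers DCN was at 0 in all libraries, LUM had 0 to 4 counts and FAP 0 to 6. PDGFRA had 6 to 19 counts and COL3A1 0 to 10. The sum of the 7 was 20.4 to 22.2 CPM against 28.0 to 28.7 CPM, with PDGFRB (log2 fold change 0.44) and COL1A1 (0.42) called. In each of these marker lists only 3 genes passed the filter and were tested. Of those, 2 were called in each list (66.7%), against 22.1% of all genes. The part of these markers in the ACTA2 result was not tested.

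The ACTA2 gene lies on the minus strand of chromosome 10 (GRCh38, chr10:88935074-88991397), and FAS, on the plus strand, spans its upstream start (chr10:88968429-89017059). FAS had 416, 416 and 343 counts with control-siRNA and 569, 392 and 422 with TAZ-siRNA (log2 fold change 0.22, adjusted p = 0.098 by edgeR). ACTA2-AS1, antisense to the other end of the gene, had 3 to 12 counts per library. The libraries were made with a stranded kit, but whether the counting used the strand is not given in the sources used here, so reads of ACTA2 and FAS may not be fully apart. PCSK7, on the minus strand (chr11:117201156-117232525), overlaps the 3′ part of TAGLN (chr11:117199294-117207465) and had 1079 to 1676 counts (log2 fold change -0.17, adjusted p = 0.056 by edgeR), many more than the 68 to 125 of TAGLN. TPM1-AS had 0 to 13 counts. LOC729970, which overlaps CNN3, had 156 to 244 counts, and LOC100652768, which spans the start of TAGLN, had 6 to 18. Of 23 pseudogenes named after these genes, 12 had no count in any library. TPM3P9 was highest, at 5.16 and 5.09 CPM in the group means, and TPM3P8 and TPM3P6 also passed 1 CPM. Of the 23, 4 passed the filter and were tested and 0 were called, and reads shared with TPM3 could have been split among them.

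The transcript table separates the starts that the gene counts merge. Transcripts of a gene whose starts lie within 100 bases of the next were summed into start-site groups, which gave 24 groups for the 10 genes, of which 18 passed the filter. TPM1 was made almost wholly from its internal start at chr15:63048451, the start of the short isoforms Tpm1.8 and Tpm1.9. That start held 99.8 to 100% of the gene's counts in each library. The upstream start at chr15:63042698, that of the long isoforms Tpm1.1 to Tpm1.7, had 7, 0 and 0 counts with control-siRNA and 10, 0 and 3 with TAZ-siRNA, and was not tested. The level that fell in TPM1 was therefore that of the internal start, at 108 ± 2.69 against 96.6 ± 3.51 CPM of start-site counts.

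TPM3 was likewise made from its internal start at chr1:154183249 (99.7 to 99.9% of counts), which gives the short isoforms such as Tpm3.1. Its upstream start at chr1:154192100 had 30 counts in control-siRNA replicate 1 and 32 in TAZ-siRNA replicate 3 and none in the other libraries. TPM4 used several starts at once. The upstream start at chr19:16067507, that of long TPM4, held 32.1 to 40.5% of the gene's counts, the internal start at chr19:16076495, that of short TPM4, 35.2 to 51.2%, and a group of predicted transcripts at chr19:16078806 16.6 to 27.7%. These shares varied as much within the groups as between them. For the short form the libraries ranged from 35.2 to 51.2% with control-siRNA and from 37.1 to 46.3% with TAZ-siRNA.

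TPM2 has 2 starts close together, both of long isoforms. The group at chr9:35689926 had 421, 402 and 360 counts with control-siRNA and 342, 203 and 324 with TAZ-siRNA (7.14 ± 0.619 against 5.19 ± 0.906 CPM). The group at chr9:35690056 had 210, 173 and 143 counts against 181, 125 and 109 (3.14 ± 0.198 against 2.47 ± 0.348 CPM). In CPM neither group of transcripts overlapped between the conditions, and the log2 fold changes were -0.46 and -0.34. The share of all start-site groups without such overlap is not given here. Neither group passed the test (adjusted p = 0.307 and 0.538 by edgeR), and the confidence intervals, -0.93 to 0.0098 and -0.91 to 0.22, included 0. Both estimates thus had the direction of the gene's fall, but a lower level was not shown at either start alone. ACTA2 was counted almost wholly from its upstream start at chr10:88991397, with 192, 188 and 124 counts against 266, 218 and 246. Its start at chr10:88952773, the one described for smooth muscle, had 0 counts in each control-siRNA library and 2, 2 and 0 with TAZ-siRNA, all under the limit of 3 counts.

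**Figure D4:**
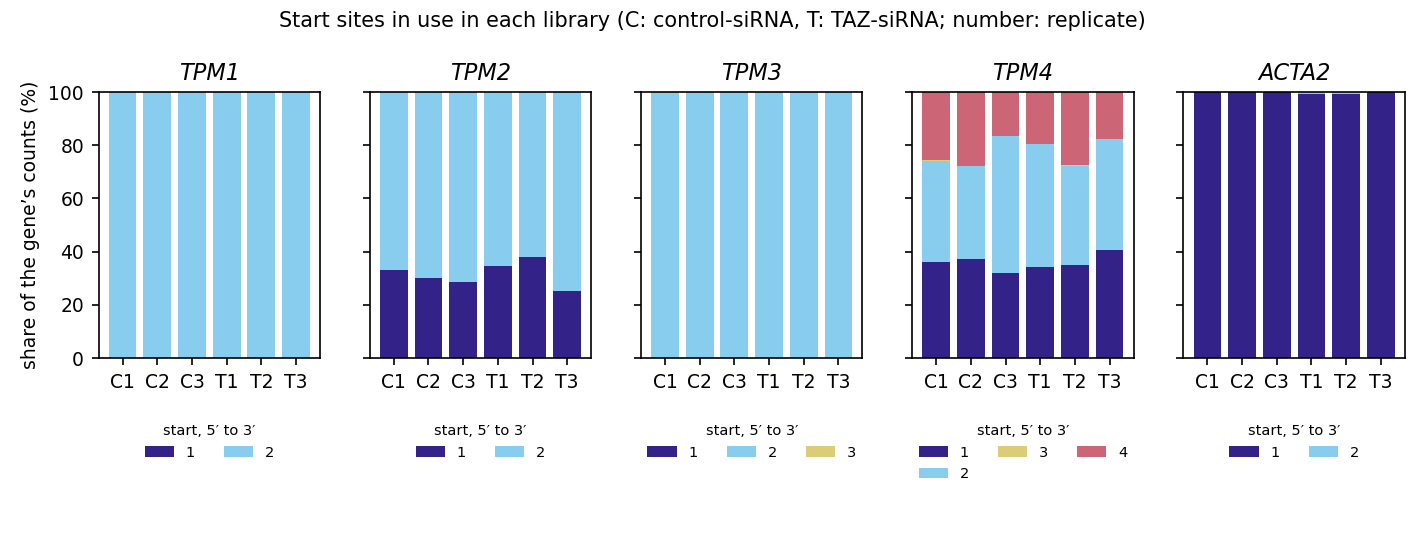
Share of each gene's counts by start-site group (stacked bars, percent of counts, starts numbered from 5′ to 3′ along the gene) in the 6 libraries, where C1 to C3 are control-siRNA and T1 to T3 are TAZ-siRNA replicates. TPM1 and TPM3 use the second start and ACTA2 the first for over 99% of counts, while TPM4 divides its counts among 3 starts.

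None of the 18 start-site groups tested was called by edgeR, against 1.7% of all start-site groups, with a lowest adjusted p of 0.149. On simulated start-site counts edgeR found only 35 of 198 changed groups. Its lack of calls therefore does not show that the levels at these starts were alike. 3 of the 18 had an unadjusted p under 0.05, against 16.8% of all start-site groups. DESeq2 called 3 (ACTA2 at its upstream start, TPM1 at its internal start, and CNN2), against 15.8% of all. On simulated start-site counts DESeq2 called 276 groups, and 180 of these calls were false. That simulation drew its counts with edgeR's own estimates of replicate variation, and only 198 of 24889 groups were changed. Its share of false calls thus cannot be carried over to the measured counts. The 3 calls are given but not used as support, since edgeR did not call these groups, and which test is right was not settled. In a test of whether a start-site group moved otherwise than the rest of its gene, none of 13 was called by edgeR, against 0.284% of all, and none had an unadjusted p under 0.05. On simulated data this test found none of the changes put in, so its lack of calls does not show that the use of starts was alike in the groups. Replicates varied far more at this level, with a biological coefficient of variation of 58.6% against 8.04% for genes.

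The bases before these starts are shown for the 3 called genes and for the 2 genes with a strict match to the motif of serum response factor. RefSeq's promoter table (GRCh38.p14) held 17 windows for 9 of the 10 genes, matched by symbol, and TAGLN had no entry. Not every start of the 9 genes had a window, and the upstream starts of TPM1 and TPM3 had none. The 250 bases before each start were searched for the CArG box, the motif of serum response factor, in its strict form (CC, 6 bases that are A or T, then GG), and for GGAATG, the core letters bound by TEAD factors, on both strands. Below, these letters are in capitals, all sequences read 5′ to 3′ on the strand of the gene, and each ends before the most upstream transcript start in the window.
ACTA2 smooth muscle start, chr10:88952774-88953023, minus strand: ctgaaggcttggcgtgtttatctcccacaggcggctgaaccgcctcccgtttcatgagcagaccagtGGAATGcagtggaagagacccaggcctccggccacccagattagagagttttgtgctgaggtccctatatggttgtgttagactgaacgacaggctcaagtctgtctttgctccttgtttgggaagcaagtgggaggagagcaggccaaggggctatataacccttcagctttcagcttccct
ACTA2 upstream start, chr10:88991398-88991587, minus strand: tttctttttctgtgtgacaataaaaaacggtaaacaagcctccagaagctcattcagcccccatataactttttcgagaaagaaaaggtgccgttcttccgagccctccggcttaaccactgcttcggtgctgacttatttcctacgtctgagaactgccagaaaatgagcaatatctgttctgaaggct
TPM1 internal start, chr15:63048239-63048450, plus strand: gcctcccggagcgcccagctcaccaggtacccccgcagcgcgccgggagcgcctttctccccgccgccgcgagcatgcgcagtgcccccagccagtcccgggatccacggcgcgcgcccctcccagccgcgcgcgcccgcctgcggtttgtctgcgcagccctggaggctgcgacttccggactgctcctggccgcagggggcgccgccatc
TPM2 upstream of both starts, chr9:35690057-35690306, minus strand: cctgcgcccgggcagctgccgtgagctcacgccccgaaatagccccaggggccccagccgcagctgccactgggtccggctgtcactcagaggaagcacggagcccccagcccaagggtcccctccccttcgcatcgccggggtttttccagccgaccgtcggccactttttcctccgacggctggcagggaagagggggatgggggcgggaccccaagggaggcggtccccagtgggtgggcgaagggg
TPM4 long-isoform start, chr19:16067288-16067506, plus strand: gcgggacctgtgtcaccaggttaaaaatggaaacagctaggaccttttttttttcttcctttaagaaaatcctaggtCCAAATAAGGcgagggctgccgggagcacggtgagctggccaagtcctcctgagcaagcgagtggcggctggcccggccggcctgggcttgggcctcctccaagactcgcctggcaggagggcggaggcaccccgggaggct
CNN2 start, chr19:1026358-1026607, plus strand: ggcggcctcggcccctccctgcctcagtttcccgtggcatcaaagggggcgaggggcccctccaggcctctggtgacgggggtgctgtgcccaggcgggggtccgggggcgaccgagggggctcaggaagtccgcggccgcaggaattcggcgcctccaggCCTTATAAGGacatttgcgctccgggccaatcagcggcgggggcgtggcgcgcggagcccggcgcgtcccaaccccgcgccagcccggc

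The strict CArG box was found in 2 of the 17 windows, 164 bases before the long-isoform start of TPM4 and 80 bases before the start of CNN2. Among all 35116 windows, 1.16% held it. Matches with 1 base off, a search added after the data were seen, were found in 3 of the 17 windows and in 15.9% of all. The ACTA2 smooth muscle window held 2 of them, ccctatatgg and ccttgtttgg, 112 and 62 bases before the start, which are the elements described for that promoter, and the others lay before internal starts of TPM4. GGAATG was found in 2 of the 17 windows, 178 bases before the smooth muscle start of ACTA2 and, on the other strand, 137 bases before a further start of CNN3, and 11.9% of all windows held it. No motif of one kind overlapped one of the other. The windows of TPM1 (internal start only), of TPM2 and of the ACTA2 start in use held neither motif in the forms searched. A match in these letters is a description of the sequence and not evidence of binding, and windows of neighbouring starts share bases.

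Other genes of the same machinery were counted from lists that do not contain the 10 genes. Of 32 targets of serum response factor, with the factor and its coactivators, 30 were tested and 9 were called (30%, against the same 22.1% of all genes), 6 higher and 3 lower (median log2 fold change 0.04). The largest changes were in TNS1 (0.53, 4.61 ± 0.710 to 6.66 ± 0.621 CPM), which links actin to focal adhesions, in FILIP1L (0.45, 2.08 ± 0.175 to 2.84 ± 0.170 CPM), in CSRP2 (0.31, 22.8 ± 0.662 to 28.3 ± 2.72 CPM) and in CSRP1 (-0.29, 156 ± 8.30 to 127 ± 11.7 CPM). The LIM-domain proteins CSRP1 and CSRP2, which both bind alpha-actinin, thus moved in opposite directions. SRF itself, singled out after its values were seen, rose from 53.1 ± 2.05 to 62.6 ± 3.98 CPM (log2 fold change 0.24, adjusted p = 0.018 by edgeR). The count of calls in this list was 2 without TAZ-siRNA replicate 1, 3 without control-siRNA replicate 2 or 3, 5 without control-siRNA replicate 1 or TAZ-siRNA replicate 2, and 15 without TAZ-siRNA replicate 3.

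Of 23 partners of tropomyosin on the filament (tropomodulins, leiomodins, caldesmon, troponins, a further transgelin and other actins), 12 were tested and 4 were called (33.3%, against 22.1% of all genes), 2 higher and 2 lower, and the median log2 fold change was -0.15. NEBL, a nebulin-family protein, rose from 13.6 ± 1.76 to 21.0 ± 0.399 CPM (log2 fold change 0.63, adjusted p = 0.0011 by edgeR). Tropomodulins cap the pointed end of filaments coated with tropomyosin. Of the 4, TMOD2 rose from 15.0 ± 0.956 to 18.9 ± 1.88 CPM and TMOD3 fell from 261 ± 4.43 to 226 ± 4.57 CPM (log2 fold changes 0.33 and -0.21), while TMOD1 (-0.20, adjusted p = 0.232 by edgeR) and TMOD4 (0.55 on 5 to 19 counts, adjusted p = 0.468) were not called. TNNT1, the troponin T of slow muscle, fell from 84.2 ± 3.67 to 71.8 ± 3.66 CPM (log2 fold change -0.23). TNNT2, TNNI1 and LMOD2 had no count in any library. ACTC1 had a fitted log2 fold change of -1.69 on 0 to 21 counts and was not called (adjusted p = 0.080 by edgeR). The count of calls was 1 without control-siRNA replicate 2, 2 without control-siRNA replicate 1 or 3 or TAZ-siRNA replicate 1, and 7 without TAZ-siRNA replicate 3.

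Of 20 proteins that crosslink, bundle or coat actin filaments by other means, 19 were tested and 9 were called (47.4%, against 22.1% of all genes), 2 of them higher and 7 of them lower (against 11.9% and 10.2% of all genes), and the median log2 fold change was -0.07. LCP1 (L-plastin) fell from 61.0 ± 1.30 to 36.7 ± 1.72 CPM (log2 fold change -0.74) and FLNC, the filamin of muscle, from 148 ± 5.87 to 105 ± 3.31 CPM (-0.50). EPS8, which caps and bundles filaments, fell from 77.6 ± 0.411 to 61.0 ± 1.23 CPM (-0.35), and SYNPO (synaptopodin) from 44.8 ± 2.72 to 36.7 ± 2.80 CPM (-0.29). These 4 were named because they were called and changed most. Their adjusted p-values (0.0151 or less by edgeR) and their lack of overlap between the groups follow largely from that choice. In the list the groups did not overlap for 12 of the 19 genes tested, against 39.6% of all genes. LIMA1 was called lower and counts in this list and among the targets of serum response factor. LCP1 and FLNC moved farther than TPM2, although the sizes were not tested against each other. Whether the share of called genes differs between the lists was not tested either.

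**Figure D5:**
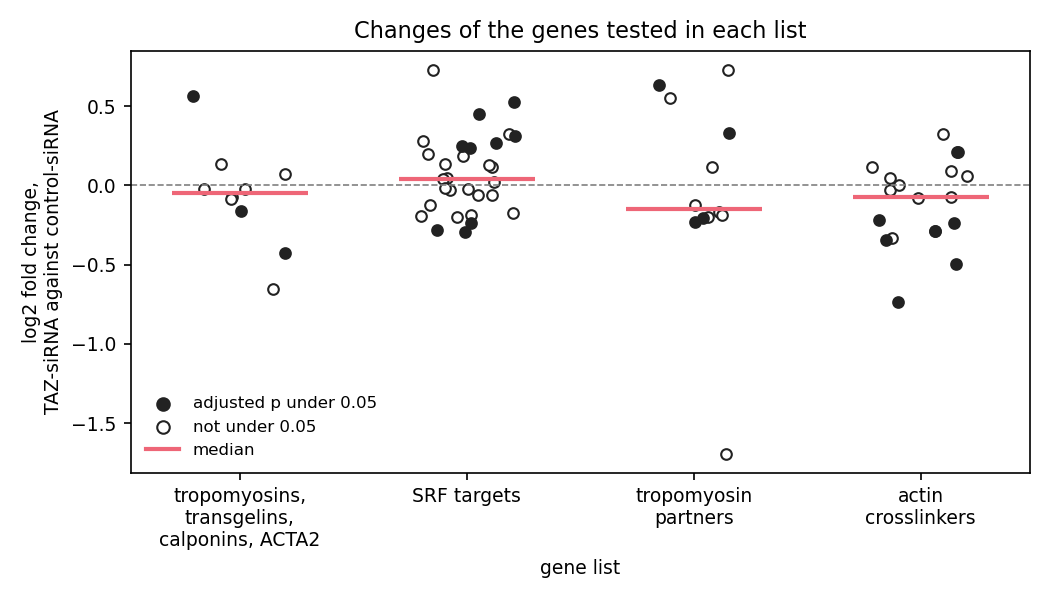
Log2 fold change, TAZ-siRNA against control-siRNA, of the genes tested in each list, with filled points where edgeR's adjusted p is under 0.05 and a line at the median. The medians lie between -0.15 (tropomyosin partners) and 0.04 (targets of serum response factor), and each list holds genes on both sides of 0.

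The genes with the profile most like that of TPM1 over the 6 libraries (Pearson correlation of log2 CPM, among genes of at least 1 CPM) were TMEM131L (r = 0.999), ANKRD33B (0.998) and PDE12 (0.998). For ACTA2 they were SDR16C5 (0.994), TMEM163 (0.994) and BOC (0.993). For TAGLN they were ZBED8 (0.949), DENND5A (0.945) and DNAJC17 (0.944). With 6 libraries in 2 groups and 13591 genes searched such values describe likeness alone, since genes that differ between the groups correlate for that reason. TAGLN had 68 to 125 counts per library and overlapping groups, and ACTA2 had 124 to 268 counts and groups that did not overlap. The reason for the lower r of TAGLN was not tested.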

How the data were processed

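RNA of 6 MDA-MB-231 preparations (3 control-siRNA, 3 TAZ-siRNA) was sequenced with a stranded mRNA kit. After trimming, the authors aligned the reads with HISAT2 (GRCh38) and ran StringTie to quantify genes and transcripts of RefSeq, as the paper's methods state. The submitters' processing notes also name Bowtie 0.12.2 and the builds mm8 and GRCh38, without saying for which step. The deposited estimated counts are whole numbers per gene and transcript and were used without rounding. For FPKM the authors scaled by transcript length and library size, and for TPM the authors also set each library to a common total. The other deposited column used, transcript length, is in bases. No value column was left without a sample.

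Counts were compared with edgeR 4.0.16 (R 4.3.3): TMM factors (0.978 to 1.02), filterByExpr (minimum count 10), a robust quasi-likelihood fit, and p-values adjusted by Benjamini-Hochberg across every gene tested. CPM values use TMM library sizes. Start-site groups and their usage (diffSpliceDGE) were tested in the same way over all genes. Transcripts for which no strand was found (12179, with 5.83% of counts) were left out there. The scripts were tested on simulated data. Alternatives were DESeq2 1.42.0, upper-quartile factors, other filters, a replicate block, a GC and length correction (values for 92.3% of genes and for all 10), limma 3.58.1 on log2 FPKM with 1 or 0.1 added, a threshold of 0.01, start windows of 20 and 500 bases, and leaving out each library.

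The genes, lists and tests were chosen with earlier results of these data known. The text names the 10 genes, WWTR1, markers, overlapping genes and pseudogenes, up to 4 called genes a list with the largest change and at least 1 CPM, and the 3 genes most like TPM1, TAGLN and ACTA2. Each group had 3 separate cell preparations. Sample titles number replicates otherwise than the value columns, and the columns' numbers are used. Replicate counts differed by more than sampling noise in every pair (chi-square at least 6.79 per degree of freedom).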

Additional observations from a re-analysis of the deposited data

How the results depend on the processing

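TPM2 was called under all 10 alternatives that used every library, ACTA2 under 9 and TPM1 under 7, and no direction of any of the 10 genes reversed under any alternative or with any library left out. TPM1 was not called by limma on log2(FPKM + 1) or log2(FPKM + 0.1) (adjusted p = 0.066 and 0.064), and TPM1 and ACTA2 were not at a threshold of 0.01. At that threshold 1 of the 10 genes, 2 targets of serum response factor, 1 tropomyosin partner and 5 crosslinkers were called, and 10.1% of all genes. Corrected for GC and length, the fit called 16 targets of serum response factor and 7 tropomyosin partners, and 28.9% of all genes against 22.1%. DESeq2 called 3 start-site groups of the 10 genes (lowest adjusted p = 8.1e-04). The causes were not tested. With each library left out in turn, 1 to 3 of the 10 genes, 2 to 15 targets of serum response factor, 1 to 7 tropomyosin partners, 6 to 10 crosslinkers, 0 start-site groups and 0 start-site usages were called.

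The replicate numbers were not shown to pair the libraries. Deviations of same-numbered libraries from their group means correlated at -0.017, 0.0086 and 0.070, and those of differently numbered libraries at -0.095 to 0.10. With 3 libraries a group such low values do not exclude a pairing. With the replicate number as a block, 3 of the 10 genes, 19 targets of serum response factor, 8 tropomyosin partners and 10 crosslinkers were called (30.2% of all genes), and with both the block and the GC and length correction 4, 18, 8 and 10 (33.4% of all genes). In that last fit TPM3 was called lower (log2 fold change -0.11, adjusted p = 0.029 by edgeR). The numbers of start-site groups and usages called were 0 with the block. Depth limits CNN1 and TAGLN, with at most 29 and 125 counts per library.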
